A study of Mus musculus with 23 samples.

Results

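Skeletal muscle genes of the mouse ear were followed through the first day after an ear punch. The 38 genes, out of 19938 genes tested, are those whose products build or serve the contractile apparatus of striated muscle fibres. They were taken by symbol, with the probe set of highest mean for each gene, and all 38 had a probe set. No filter on low values was applied, so every gene stays in every count. The punch made a hole of 2 mm, and a biopsy punch of 3 mm then took the surrounding 1 mm of ear pinna, so that each wounded sample is a rim of wound edge from a mouse aged 4 weeks. One genotype was Rhbdf2+/+ (wild type), of strain C57BL/6J, with 3 arrays each of unwounded ear (0 h) and of rims taken after 15 min, 2 h and 24 h. The other was Rhbdf2cub/cub on the B6.Cg-Rhbdf2cub/J strain, called cub here, with 3 arrays at 0 h, 2 h and 24 h and 2 arrays at 15 min. The cub allele is a mutation of Rhbdf2, which encodes iRhom2, a partner of the shedding protease ADAM17. The mice were female by the study's design text, which counts 3 mice per time point, and the arrays are named as biological replicates. The size and shape of the piece taken at 0 h is not given in the sources used here, so a difference between 0 h and a rim can include a difference in what was cut out.

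Striated muscle shortens when myosin heads of the thick filament pull on actin of the thin filament. Troponin and tropomyosin on the thin filament block this until calcium rises. Titin and the Z disc hold the filaments in register, and desmin ties neighbouring Z discs together. A signal on the surface membrane opens the calcium store inside the fibre through the ryanodine receptor, and a pump then returns the calcium. Fast and slow fibres use different genes for the same parts. The ear pinna holds small auricular muscles besides skin, cartilage and fat, and some of the genes, such as Des and Tpm2, are also active in smooth muscle. In bulk tissue, fewer muscle cells and less RNA per muscle cell cannot be told apart.

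Values are log2 RMA intensities over 23 arrays, from 2.92 to 13.84, and the array medians lay between 6.37 and 6.46. A difference of 1 is a factor of 2 on this scale. Mean levels of the muscle genes over all arrays ran from 6.78 for Cav3 to 12.3 for Myl1, but probe sets differ in how they respond, so these levels rank no genes. Of the heart genes, Myh6, the myosin of atria and adult mouse heart, lay at 5.65 to 6.04 and the atrial light chain Myl7 at 5.56 to 5.70 in the 6 unwounded arrays, below every array median. Rhbdf2 itself read 8.70 ± 0.06 in wild type and 9.11 ± 0.04 in cub at 0 h, 9.0 ± 0.04 and 9.0 ± 0.12 at 2 h, and 8.81 ± 0.22 and 8.32 ± 0.13 at 24 h (SD, n = 3 each), so that the order of the genotypes changed with time, and where its probes lie relative to the mutation was not examined. Markers of neutrophils, averaged over 12 genes with each gene centred on its own mean, went from −1.52 ± 0.13 to 2.55 ± 0.20 in wild type between 0 h and 24 h, and from −1.60 ± 0.06 to 2.99 ± 0.23 in cub (SD, n = 3 each).

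Muscle transcripts were lower in the rims after 24 h in both genotypes, and in wild type by 2 h only 1 of the 38 had passed the test, upward. Each gene was centred on its mean over the 23 arrays, and the 38 values were averaged in each array. In wild type the mean over the 38 genes was 0.244, 0.085 and −0.044 at 0 h, 0.444, 0.025 and 0.230 at 15 min, −0.125, 0.175 and 0.251 at 2 h, and −0.389, −0.736 and −0.644 at 24 h. In cub it was 0.358, 0.412 and 0.282 at 0 h, 0.070 and 0.295 at 15 min, −0.030, 0.060 and 0.092 at 2 h, and −0.421, −0.266 and −0.369 at 24 h. All 6 arrays of 24 h rims lay below the other 17 arrays. The wild-type arrays of the 3 earlier times overlapped, while the cub arrays at 2 h all lay below those at 0 h.

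**Figure D1:**
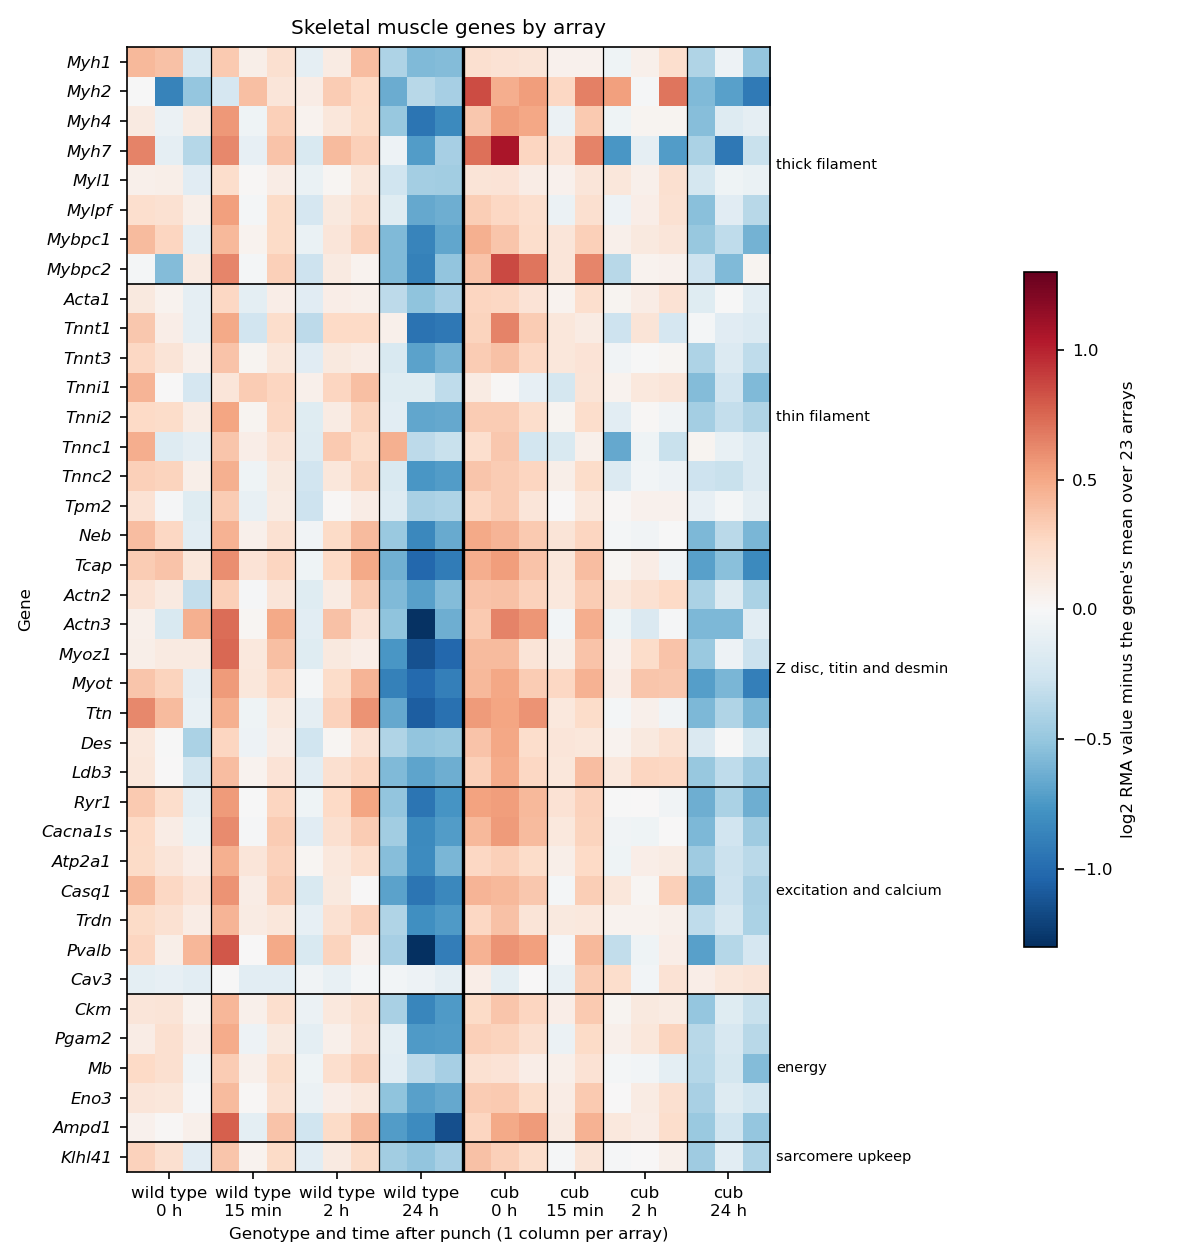
Each column is 1 array and each line 1 muscle gene, grouped by role; colour is the log2 RMA value minus that gene's mean over the 23 arrays, red above and blue below. The 24 h columns are blue for nearly every gene in both genotypes, while the earlier columns are mixed, with array means between −0.125 and 0.444. Exceptions at 24 h are Cav3 in cub and single arrays of genes such as Tnnc1 and Tnnt1.

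Counts of genes passing the test follow the same course. Differences were tested with limma on all 19938 genes, and p-values were adjusted per comparison after Benjamini and Hochberg, with a threshold of 0.05. Standard errors come from that fit. In wild type, 0 of 38 muscle genes passed at 15 min against 0 h (0 and 0.0351% of all genes were lower and higher), where the smallest adjusted p was 0.321 for Myh2. At 2 h in wild type, 0 were lower and 1 higher (4% and 3.98% of all genes). At 24 h in wild type, 33 were lower and 0 higher, against 22.4% and 20.5% of all genes, with a median of −0.71 beside −0.02 over all genes. In cub, 0 passed at 15 min (0.00502% and 0.0201% of all genes lower and higher). At 2 h in cub, 10 were lower and 0 higher (4.28% and 7.66% of all genes), with a median of −0.24. At 24 h in cub, 35 were lower and 0 higher (24.9% and 21.1%), with a median of −0.64 beside a median near 0 over all genes. The 24 h arrays lay wholly below those of 0 h for 30 genes in wild type and 36 in cub (26.3% and 26.9% of all genes). The 24 h calls were shared for 32 genes, which are 32 of the 33 in wild type and 32 of the 35 in cub. With 33 and 35 of 38 genes called, most of this overlap is fixed by the counts themselves. The share of all genes called in both genotypes was not counted. Taking all rims together against both unwounded groups, 31 were lower and 0 higher (17.5% and 16.6% of all genes), with a median of −0.29, an average over times with unlike counts.

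The rims also differed among themselves, and those comparisons are free of the question of what was cut at 0 h. In wild type, 24 h rims had 36 lower and 0 higher against 15 min rims (23.6% and 19.9% of all genes), with a median of −0.80. Against 2 h rims they had 35 lower and 0 higher (20.4% and 21.1%), with a median of −0.69. In cub, 24 h rims had 31 lower and 0 higher against 15 min (28.5% and 20.3% of all genes), a count of 17 without the third replicate of cub at 15 min. Against 2 h rims of cub, 26 were lower and 0 higher (23.4% and 18.8%). Between 15 min and 2 h, 0 passed in wild type (3.08% of all genes lower and 2.63% higher). In cub 1 was lower and 0 higher in that comparison (8.92% and 8.66% of all genes), the slow myosin Myh7. In all 6 comparisons of 24 h with an earlier time of the same genotype, 23 genes were called lower, among them Tcap, Ttn, Neb, Ryr1, Atp2a1, Ckm and Mb. These comparisons share their 24 h arrays, and the share of all genes called lower in all 6 was not counted. In cub, 16 of the 31 calls against 15 min and 17 of the 26 against 2 h held in all alternatives.

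**Figure D2:**
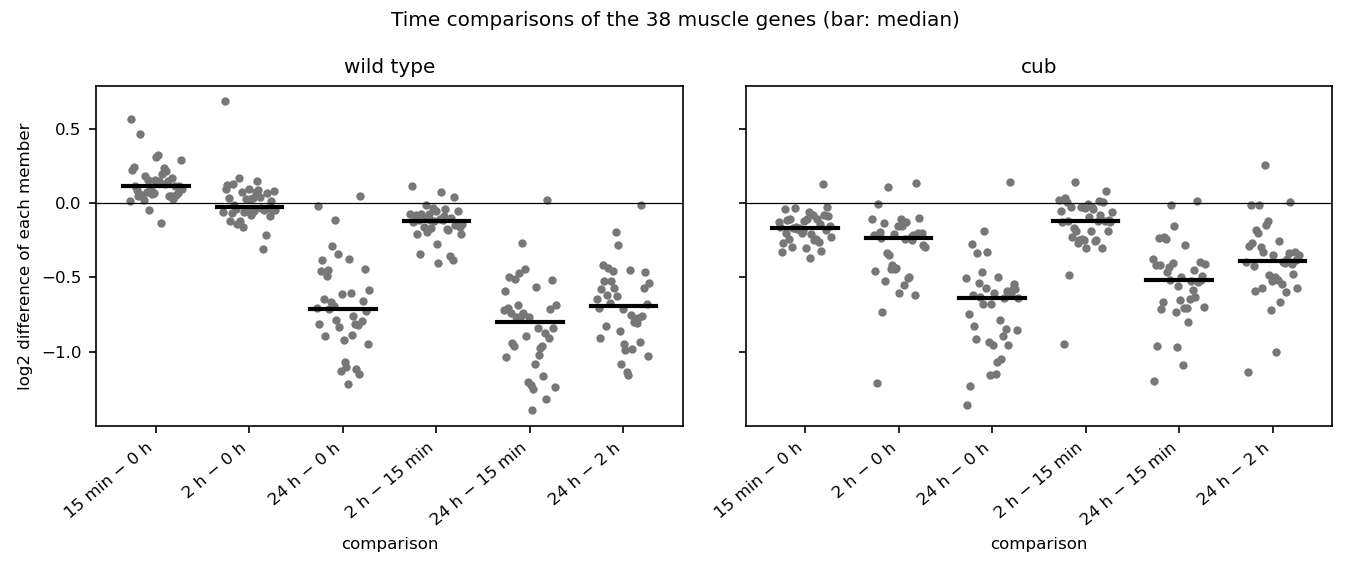
Each point is 1 muscle gene's log2 difference between times, later minus earlier, with the median as a bar; wild type is on the left and cub on the right. The 3 comparisons with 24 h lie almost wholly below 0 in both genotypes, with medians of −0.71, −0.80 and −0.69 in wild type and −0.64, −0.52 and −0.39 in cub.

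Thick filament genes encode the myosin motors and the proteins that trim them. At 24 h against 0 h, 6 of 8 were lower in wild type and 8 of 8 in cub (22.4% and 24.9% of all genes). Myh4, the fastest myosin heavy chain of mouse muscle, read 11.16, 10.97 and 11.16 at 0 h, 11.61, 10.99 and 11.35 at 15 min, 11.09, 11.19 and 11.29 at 2 h, and 10.55, 10.09 and 10.21 at 24 h in wild type. The cub arrays read 11.39, 11.59 and 11.54 at 0 h, 10.97 and 11.38 at 15 min, 10.99, 11.08 and 11.08 at 2 h, and 10.49, 10.87 and 10.92 at 24 h. Every 24 h array of Myh4 lay below every earlier array of its genotype, with a difference from 0 h of −0.81 ± 0.14 (adjusted p = 5.93e-05) in wild type and −0.75 ± 0.14 (adjusted p = 0.000132) in cub. Myh1, the IIx fast myosin, read 11.82, 11.78 and 11.19 at 0 h, 11.74, 11.48 and 11.61 at 15 min, 11.29, 11.51 and 11.80 at 2 h, and 11.00, 10.83 and 10.84 at 24 h in wild type. Cub values were 11.61, 11.59 and 11.57 at 0 h, 11.46 and 11.46 at 15 min, 11.35, 11.47 and 11.62 at 2 h, and 11.01, 11.34 and 10.90 at 24 h. The 24 h arrays of Myh1 were below those of 0 h without overlap in both genotypes, at −0.71 ± 0.14 (adjusted p = 0.000276) and −0.51 ± 0.14 (adjusted p = 0.00498). Of the light chains, Myl1 fell by 0.38 and 0.27 and the regulatory chain Mylpf by 0.65 and 0.62 in wild type and cub. Among the myosin-binding proteins, which slow cross-bridge cycling, Mybpc1 fell by 0.90 and 0.83 in the same order. Mybpc2, the fast-fibre form, changed by −0.49 ± 0.20 (adjusted p = 0.0498) in wild type, where its arrays overlapped and 7 of 12 alternatives lost the call (adjusted p up to 0.223; median centring, trend and robust variance, and leaving out 0 h replicate 1 or 3 or any 24 h array), and by −0.91 ± 0.20 (adjusted p = 0.000543) in cub, where they did not.

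Myh2, the IIa fast myosin of oxidative fibres, was the one fast myosin heavy chain with no call between 24 h and 0 h in wild type. In wild type it read 9.11, 8.25 and 8.61 at 0 h, 8.90, 9.50 and 9.27 at 15 min, 9.21, 9.44 and 9.37 at 2 h, and 8.47, 8.75 and 8.68 at 24 h. The 24 h arrays overlapped those of 0 h, the 2 h arrays lay above both, and the 2 h difference from 0 h was 0.68 ± 0.19 (adjusted p = 0.0317). That call rests on single arrays: leaving out any of 5 of the 6 arrays ended it, with adjusted p between 0.00577 and 0.206 over all alternatives. Against the earlier rims, wild-type Myh2 was lower at 24 h without overlap, by −0.71 ± 0.19 (adjusted p = 0.00499) from 2 h, which held in all 12 alternatives, and by −0.59 ± 0.19 (adjusted p = 0.0165) from 15 min, which was lost without 15 min replicate 2 or 24 h replicate 1. In cub Myh2 read 9.96, 9.59 and 9.66 at 0 h, 9.38 and 9.77 at 15 min, 9.65, 9.10 and 9.81 at 2 h, and 8.54, 8.41 and 8.19 at 24 h. It began high and ended low there, with a difference between 24 h and 0 h of −1.36 ± 0.19 (adjusted p = 4.37e-06), 2.56 times lower, against −0.02 ± 0.19 (adjusted p = 0.946) in wild type. The difference between these 2 changes was −1.33 ± 0.27 (adjusted p = 0.0195), and 1 of 38 genes passed this test (0.747% of all genes lower and 0.256% higher). Leaving out 1 array ended the call in 4 cases, namely wild type at 0 h replicate 2 or 3, cub at 0 h replicate 1 and cub at 24 h replicate 3, with adjusted p up to 0.0651. When each array's value was set against its group mean, Myh2 also stood apart, with a Pearson r of −0.09 with the mean of the other 37 genes over the 23 arrays. For 33 of the other 37 that r lay at 0.688 or above, up to 0.97 for Tpm2, a description of how arrays of a group differ from each other.

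Myh7, the slow and heart-ventricle myosin, spread widely within groups. In wild type it read 8.27, 7.51 and 7.25 at 0 h, 8.25, 7.52 and 7.99 at 15 min, 7.43, 8.03 and 7.93 at 2 h, and 7.56, 6.90 and 7.19 at 24 h. The first replicate at 0 h stood above the other 2, and the 24 h difference was −0.46 ± 0.27 (adjusted p = 0.189), with overlapping arrays. In cub it read 8.34, 8.68 and 7.90 at 0 h, 7.81 and 8.27 at 15 min, 6.87, 7.51 and 6.90 at 2 h, and 7.21, 6.69 and 7.33 at 24 h. All 3 arrays at 2 h and all 3 at 24 h lay below all 5 of 0 h and 15 min, and the 2 h difference from 0 h was −1.21 ± 0.27 (adjusted p = 0.00391), the only cub 2 h call that held in each of 12 alternatives. Between 15 min and 2 h it was −0.95 ± 0.30 (adjusted p = 0.034), a call lost without cub 15 min replicate 3, 2 h replicate 1 or 2 h replicate 3, and between 0 h and 24 h −1.23 ± 0.27 (adjusted p = 0.000558). The genotype difference of the 2 h change was −1.33 ± 0.38 (adjusted p = 0.191) and did not pass, as for all 38 genes (0.0251% of all genes lower and 0.105% higher).

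The starts of Myh2, Myh1 and Myh4 lie in a row on chromosome 11, and the 250 bases before each start are shown because Myh2, unlike its neighbours, had no wild-type call between 24 h and 0 h, though all 3 had calls against the 15 min and 2 h rims, beside the starts of Casq1 and Acta1, a gene of large and one of small change. Sequences are RefSeq windows on build GRCm38.p6, written 5′ to 3′ on the gene's strand, with letters matching CANNTG, MEF2 or CArG in capitals.
Myh2, chr11:67170777-67171026, plus strand: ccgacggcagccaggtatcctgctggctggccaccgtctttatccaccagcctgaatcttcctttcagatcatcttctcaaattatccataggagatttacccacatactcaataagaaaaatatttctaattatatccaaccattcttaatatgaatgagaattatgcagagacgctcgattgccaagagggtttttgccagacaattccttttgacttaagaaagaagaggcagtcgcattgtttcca
Myh1, chr11:67199852-67200101, plus strand: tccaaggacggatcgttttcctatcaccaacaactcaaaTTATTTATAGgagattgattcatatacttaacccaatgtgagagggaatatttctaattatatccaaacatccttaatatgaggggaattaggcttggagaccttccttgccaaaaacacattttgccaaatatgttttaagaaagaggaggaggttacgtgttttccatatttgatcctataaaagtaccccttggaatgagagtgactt
Myh4, chr11:67237562-67237811, plus strand: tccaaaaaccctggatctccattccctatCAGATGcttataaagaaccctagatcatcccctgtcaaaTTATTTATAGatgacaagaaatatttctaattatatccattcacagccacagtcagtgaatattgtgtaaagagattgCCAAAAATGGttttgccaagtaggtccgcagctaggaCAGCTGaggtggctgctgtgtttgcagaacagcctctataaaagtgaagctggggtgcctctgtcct
Casq1, chr1:172219896-172220145, minus strand: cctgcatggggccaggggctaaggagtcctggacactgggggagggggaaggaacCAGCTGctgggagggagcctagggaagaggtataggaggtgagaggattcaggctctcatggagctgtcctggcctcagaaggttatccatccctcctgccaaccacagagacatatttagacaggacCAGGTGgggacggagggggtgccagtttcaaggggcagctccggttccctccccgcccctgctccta
Acta1, chr8:123894776-123895025, minus strand: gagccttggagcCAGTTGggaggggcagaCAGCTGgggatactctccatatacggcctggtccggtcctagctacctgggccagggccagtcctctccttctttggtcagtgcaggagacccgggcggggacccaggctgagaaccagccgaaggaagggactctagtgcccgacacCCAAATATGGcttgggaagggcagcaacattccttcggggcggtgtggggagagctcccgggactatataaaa
CANNTG is the E-box letter pattern that MyoD-type factors can bind, CAGCTG is 1 form of it, MEF2 is the AT-rich motif of the MEF2 factors and CArG that of serum response factor. Both strands were searched. Of the 5 stretches, Myh2 held none of the 3 motifs, Myh1 held a MEF2 match beginning at −211 from its start, and Myh4 held a MEF2 match at −182, a CArG match at −104 and 2 CANNTG matches. Casq1 held 2 CANNTG matches, and Acta1 held 2 and a CArG match at −73. Over the full windows, which reach 50 bases past the start, 29 of the 38 genes had an entry, with 35 windows. CANNTG was in 82.9% of those windows and in 72.3% of all 32851 windows of 300 bases. CAGCTG was in 54.3% against 16.3%, MEF2 in 17.1% against 3.19%, CArG in 11.4% against 1.63% and TATAAA in 17.1% against 13.6%. Windows of 1 gene overlap, every CAGCTG match is also a CANNTG match, and a MEF2 match can share letters with TATAAA. A match is a run of letters and not a measured binding site. In cub, Myh2 had the largest 24 h difference from 0 h of the 38 genes, at −1.36. Whether any motif goes with the change of a gene was not tested.

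Thin filament genes had 7 of 9 lower at 24 h in each genotype (22.4% and 24.9% of all genes in wild type and cub). Acta1, the actin of skeletal muscle, read 12.28, 12.20 and 12.04 at 0 h, 12.42, 12.03 and 12.24 at 15 min, 12.01, 12.24 and 12.22 at 2 h, and 11.81, 11.63 and 11.72 at 24 h in wild type. The cub arrays read 12.43, 12.42 and 12.33 at 0 h, 12.20 and 12.37 at 15 min, 12.19, 12.25 and 12.34 at 2 h, and 12, 12.15 and 12.02 at 24 h. The 24 h arrays lay below all others of their genotype, at −0.45 ± 0.09 (adjusted p = 0.000223) and −0.34 ± 0.09 (adjusted p = 0.00321) from 0 h, factors of 1.37 and 1.26. Neb, nebulin, the ruler that spans the thin filament, read 10.97, 10.84 and 10.44 at 0 h, 11.02, 10.64 and 10.77 at 15 min, 10.53, 10.82 and 10.98 at 2 h, and 10.09, 9.73 and 9.92 at 24 h in wild type. Cub values were 11.07, 11.01 and 10.91 at 0 h, 10.74 and 10.85 at 15 min, 10.55, 10.53 and 10.57 at 2 h, and 9.99, 10.22 and 9.98 at 24 h. Neb had no overlap between 24 h and any earlier time in either genotype, and differed from 0 h by −0.84 ± 0.13 (adjusted p = 1.14e-05) and −0.93 ± 0.13 (adjusted p = 2.19e-06). The fast troponins were lower in both genotypes: Tnnt3 fell by 0.66 and 0.63, Tnni2 fell by 0.69 and 0.68, and the calcium sensor Tnnc2 fell by 0.79 and 0.57. Tpm2, beta tropomyosin, fell by 0.34 and 0.33.

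The slow troponins gave a less even picture. Tnnt1, slow troponin T, read 10.20, 9.93 and 9.73 at 0 h, 10.34, 9.60 and 10.08 at 15 min, 9.51, 10.11 and 10.11 at 2 h, and 9.91, 8.89 and 8.92 at 24 h in wild type. Its first 24 h replicate lay within the range of the unwounded arrays and the other 2 below it, and the difference was −0.71 ± 0.22 (adjusted p = 0.0127), a call lost without 0 h replicate 1, 24 h replicate 2 or 24 h replicate 3. In cub the Tnnt1 difference was −0.54 ± 0.22 (adjusted p = 0.0548), short of the threshold with no overlap of arrays. Tnni1, slow troponin I, was −0.29 ± 0.13 (adjusted p = 0.0856) in wild type and −0.47 ± 0.13 (adjusted p = 0.00552) in cub. Tnnc1, troponin C of slow and heart muscle, passed in neither, at −0.12 ± 0.21 (adjusted p = 0.717) and −0.19 ± 0.21 (adjusted p = 0.513), with wild-type 24 h values of 8.23, 7.43 and 7.48. The first wild-type 24 h replicate was thus also the highest of its group for Tnnc1 and for Myh7. Sorted by fibre type, 13 of 14 fast-fibre genes were lower at 24 h in wild type and 14 of 14 in cub, with medians of −0.75 and −0.66. Of 4 slow-fibre genes, 1 and 2 were lower, with medians of −0.38 and −0.50. Of all genes, 22.4% and 24.9% were lower in wild type and cub. Whether fast and slow genes differ was not tested.

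**Figure D3:**
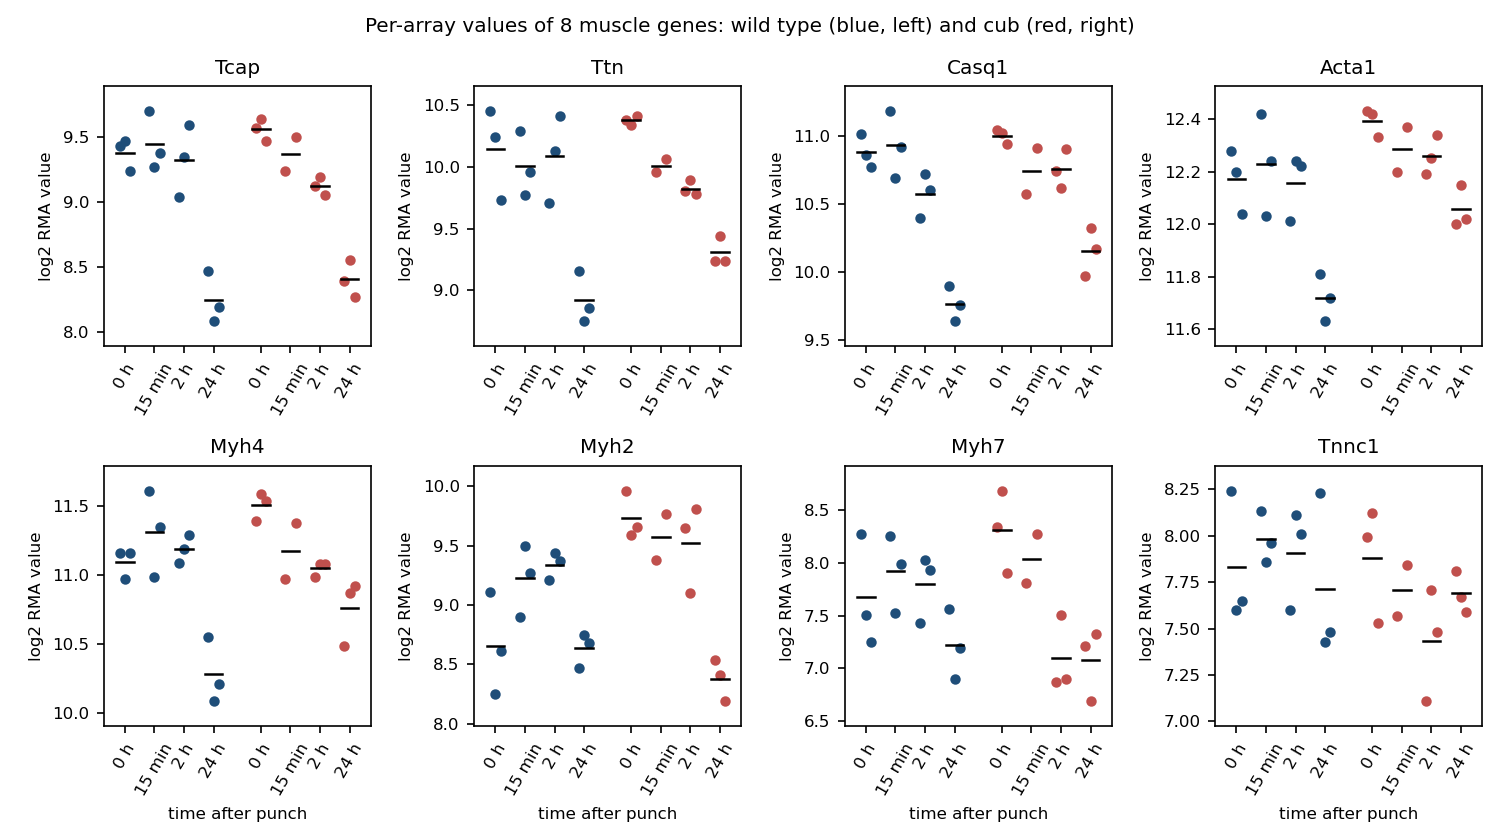
Log2 RMA values of 8 muscle genes in each of 23 arrays, wild type in blue and cub in red, with the group mean as a bar and times as categories. Tcap, Ttn, Casq1, Acta1 and Myh4 drop at 24 h in both genotypes; Myh2 drops in cub, from 9.59 to 9.96 at 0 h, Myh7 is low in cub at 2 h, and Tnnc1 groups overlap.

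All 8 genes of the Z disc, titin and desmin were lower at 24 h in both genotypes, with medians of −0.995 and −0.87. Of all genes, 22.4% and 24.9% were lower in wild type and cub. Ttn, titin, the spring that centres the thick filament, read 10.45, 10.24 and 9.73 at 0 h, 10.29, 9.77 and 9.96 at 15 min, 9.71, 10.13 and 10.41 at 2 h, and 9.16, 8.75 and 8.86 at 24 h in wild type. In cub it read 10.38, 10.34 and 10.41 at 0 h, 9.96 and 10.06 at 15 min, 9.80, 9.89 and 9.78 at 2 h, and 9.24, 9.44 and 9.24 at 24 h. The 24 h arrays of titin lay below all earlier arrays in both genotypes, with differences from 0 h of −1.22 ± 0.16 (adjusted p = 2.59e-06) and −1.07 ± 0.16 (adjusted p = 1.12e-05), factors of 2.32 and 2.10. Tcap, which caps titin at the Z disc, read 9.43, 9.47 and 9.24 at 0 h, 9.70, 9.27 and 9.38 at 15 min, 9.04, 9.35 and 9.59 at 2 h, and 8.47, 8.08 and 8.19 at 24 h in wild type. The cub arrays read 9.57, 9.64 and 9.47 at 0 h, 9.24 and 9.50 at 15 min, 9.12, 9.19 and 9.05 at 2 h, and 8.39, 8.55 and 8.27 at 24 h. It too was lower in every 24 h array than in any earlier one of its genotype, with differences of −1.13 ± 0.13 (adjusted p = 2.13e-07) and −1.16 ± 0.13 (adjusted p = 1.2e-07). Myot, myotilin, which cross-links actin at the Z disc, differed by −1.10 ± 0.13 (adjusted p = 3.43e-07) and −1.15 ± 0.13 (adjusted p = 1.38e-07). Myoz1, a calcineurin-binding Z-disc protein of fast fibres, was −1.07 ± 0.14 (adjusted p = 1.25e-06) in wild type and −0.61 ± 0.14 (adjusted p = 0.000813) in cub, and the genotype difference of these changes did not pass (0.46 ± 0.19, adjusted p = 0.356). The alpha-actinins that bundle actin at the Z disc fell as well, Actn2 by 0.61 and 0.68 and the fast-fibre Actn3 by 0.92 and 0.95. Ldb3, a PDZ protein of the Z disc, fell by 0.60 and 0.79. Des, desmin, read 10.85, 10.71 and 10.30 at 0 h, 10.99, 10.64 and 10.81 at 15 min, 10.45, 10.74 and 10.90 at 2 h, and 10.32, 10.20 and 10.22 at 24 h in wild type. Cub values were 11.08, 11.21 and 10.94 at 0 h, 10.87 and 10.86 at 15 min, 10.76, 10.84 and 10.91 at 2 h, and 10.52, 10.71 and 10.51 at 24 h. Desmin had the smallest difference of this group in each genotype, −0.37 ± 0.12 (adjusted p = 0.0156) and −0.50 ± 0.12 (adjusted p = 0.00165), and in wild type one 24 h array (10.32) lay above the lowest 0 h array (10.30). The wild-type call of desmin was lost without 0 h replicate 1, 0 h replicate 2 or 24 h replicate 2.

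Genes of excitation and calcium handling had 6 of 7 lower at 24 h in each genotype (22.4% and 24.9% of all genes in wild type and cub). Pvalb, parvalbumin, the calcium buffer of the fastest fibres, read 10.92, 10.71 and 11.07 at 0 h, 11.44, 10.64 and 11.13 at 15 min, 10.44, 10.93 and 10.69 at 2 h, and 10.20, 9.31 and 9.74 at 24 h in wild type. In cub it read 11.09, 11.22 and 11.17 at 0 h, 10.62 and 11.06 at 15 min, 10.32, 10.58 and 10.72 at 2 h, and 9.93, 10.27 and 10.42 at 24 h. The 24 h arrays were below those of 0 h in both, with differences of −1.15 ± 0.20 (adjusted p = 6.81e-05) and −0.95 ± 0.20 (adjusted p = 0.000439). Casq1, calsequestrin, which holds calcium in the store, differed by −1.11 ± 0.12 (adjusted p = 1.12e-07) and −0.85 ± 0.12 (adjusted p = 3.83e-06). Ryr1, the release channel, differed by −0.89 ± 0.14 (adjusted p = 2.2e-05) and −1.05 ± 0.14 (adjusted p = 2.11e-06). Cacna1s, the voltage sensor that opens it, fell by 0.76 and 0.89, and Atp2a1, the pump that refills the store, by 0.82 and 0.64. Trdn, triadin, which links Ryr1 to calsequestrin, fell by 0.82 and 0.59, and it was the one gene of the 38 with several probe sets. All 19 had lower means at 24 h than at 0 h in both genotypes, with no test of each. With the mean of these probe sets in place of the highest, the Trdn calls of cub 24 h against 15 min and 2 h were lost (adjusted p = 0.517 and 0.0822). Cav3, muscle caveolin, stayed between 6.64 and 7.11 in all 23 arrays, with differences of 0.05 ± 0.08 (adjusted p = 0.699) and 0.14 ± 0.08 (adjusted p = 0.184). It is the lowest of the 38 probe sets and lies near the array medians; whether this probe set reports the transcript well was not tested.

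Energy genes were lower at 24 h in 5 of 5 in both genotypes (22.4% and 24.9% of all genes in wild type and cub). Ckm, the creatine kinase of muscle, read 11.90, 11.91 and 11.79 at 0 h, 12.17, 11.81 and 11.96 at 15 min, 11.66, 11.88 and 11.95 at 2 h, and 11.32, 10.89 and 11.00 at 24 h in wild type. The cub arrays read 11.99, 12.10 and 12.02 at 0 h, 11.83 and 12.08 at 15 min, 11.78, 11.87 and 11.85 at 2 h, and 11.24, 11.58 and 11.45 at 24 h. No 24 h array of Ckm reached an earlier array of its genotype, and the differences were −0.80 ± 0.11 (adjusted p = 2.93e-06) and −0.61 ± 0.11 (adjusted p = 6.22e-05). Ampd1, the AMP deaminase of muscle, read 7.67, 7.63 and 7.68 at 0 h, 8.39, 7.48 and 7.98 at 15 min, 7.35, 7.86 and 8.02 at 2 h, and 6.88, 6.79 and 6.47 at 24 h in wild type. Cub values were 7.89, 8.10 and 8.16 at 0 h, 7.73 and 8.06 at 15 min, 7.75, 7.71 and 7.84 at 2 h, and 7.13, 7.35 and 7.11 at 24 h. It had the largest change of the 5, −0.95 ± 0.17 (adjusted p = 0.000112) and −0.85 ± 0.17 (adjusted p = 0.000296). The muscle enolase Eno3 fell by 0.73 and 0.58, the phosphoglycerate mutase Pgam2 by 0.66 and 0.58, and the oxygen store myoglobin, Mb, by 0.45 and 0.54. Klhl41, which keeps nebulin stable, read 10.52, 10.43 and 10.07 at 0 h, 10.58, 10.26 and 10.47 at 15 min, 10.08, 10.33 and 10.47 at 2 h, and 9.77, 9.70 and 9.79 at 24 h in wild type and 10.60, 10.53 and 10.45 at 0 h, 10.20 and 10.39 at 15 min, 10.20, 10.22 and 10.28 at 2 h, and 9.76, 10.08 and 9.82 at 24 h in cub. Its 24 h arrays lay below every earlier one, with differences from 0 h of −0.59 ± 0.11 (adjusted p = 0.000159) and −0.64 ± 0.11 (adjusted p = 5.05e-05).

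**Figure D4:**
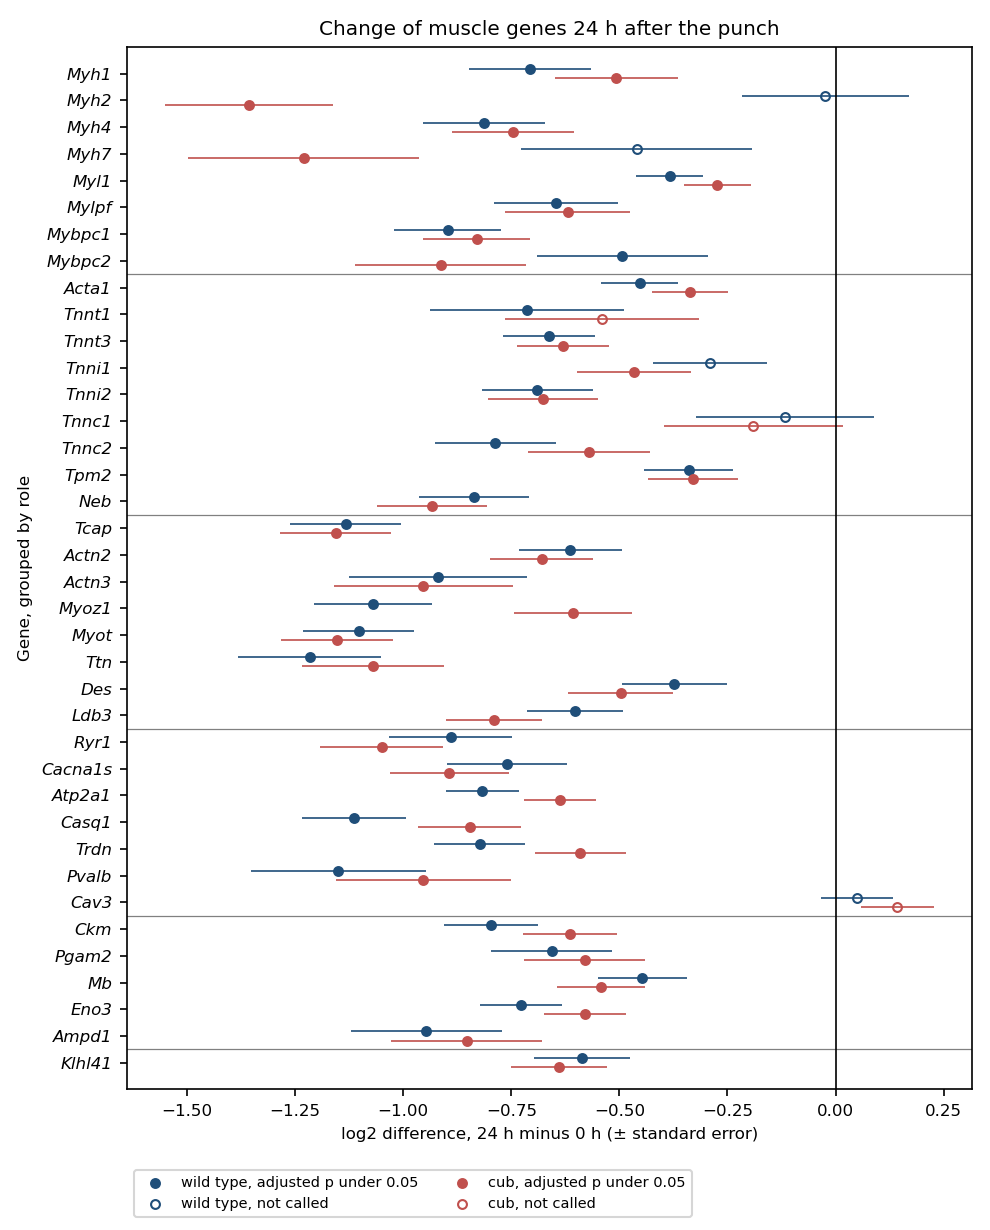
Log2 difference between 24 h rims and 0 h tissue for each of the 38 genes with its standard error, wild type in blue and cub in red; filled points passed an adjusted p of 0.05. Nearly all points of both genotypes lie below 0, down to −1.22 for Ttn in wild type and −1.36 for Myh2 in cub, and Myh2, Myh7, Tnni1 and Tnnt1 are the genes filled in 1 genotype only.

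At 2 h in cub the 10 lower genes were Myh7, Mybpc2, Pvalb, Ttn, Ryr1, Cacna1s, Myh4, Neb, Tcap and Tnnt3. Besides Myh7, their differences ran from −0.73 for Mybpc2 (0.0174) to −0.33 for Tnnt3 (0.0439), written with the adjusted p in brackets. The arrays of 27 genes lay wholly below those of 0 h (11.9% of all genes), while leaving out any 1 of the 6 arrays left 1 to 5 calls. In the same comparison 7 of 13 adipocyte markers were lower and 0 higher (4.28% and 7.66% of all genes). The mean of these markers in cub went from 0.006 to 0.985 at 0 h to −0.397 to 0.224 at 2 h. Also there, 5 of 9 fibroblast markers were higher and 0 lower, with array means of 0.051 to 0.175 at 0 h and 0.309 to 0.444 at 2 h, and 10 of 12 neutrophil markers were higher. Their part in the muscle values was not tested. At 15 min in cub, 16 genes had arrays wholly below those of 0 h (7.69% of all genes) with only 2 arrays at 15 min, and 0 passed the test; the smallest adjusted p was 0.338, for Myh4.

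Cub and wild type differed in few of these genes. In unwounded ear, 4 of 38 were higher in cub and 0 lower (3.33% and 1.93% of all genes): Myh2 by 1.08 ± 0.19 (adjusted p = 0.00258), Mybpc2 by 0.80 ± 0.20 (adjusted p = 0.0196), Des by 0.46 ± 0.12 (adjusted p = 0.03) and Ldb3 by 0.39 ± 0.11 (adjusted p = 0.0452). The 0 h values of Myh2 were 9.96, 9.59 and 9.66 in cub against 9.11, 8.25 and 8.61 in wild type, without overlap. Only the Myh2 call held in all 12 alternatives, and the count went to 1 without wild-type replicate 2 or cub replicate 2 and to 5 without wild-type replicate 1. In all, 15 of the 38 had every cub array above every wild-type array at 0 h (11.3% of all genes). In the same comparison 6 of 10 endothelial markers were higher in cub and 0 lower, with array means of 0.099 to 0.330 against −0.199 to −0.080, and 1 of 13 adipocyte markers was higher. Their part in the muscle values was not tested. At 15 min, 0 passed (1.88% of all genes lower and 1.57% higher), and at 2 h, 0 passed (0.577% lower and 3.84% higher). At 24 h, 4 were higher in cub and 0 lower (2.24% and 3.44%): Myoz1 by 0.69 ± 0.14 (adjusted p = 0.00445), Eno3 by 0.36 ± 0.09 (adjusted p = 0.0271), Acta1 by 0.34 ± 0.09 (adjusted p = 0.0279) and Atp2a1 by 0.29 ± 0.08 (adjusted p = 0.0411). The 24 h values of Myoz1 were 9.03, 9.45 and 9.24 in cub against 8.76, 8.38 and 8.50 in wild type, without overlap. In all, 13 of the 38 had no overlap in that direction at 24 h (8.41% of all genes). There 5 of 9 fibroblast and 3 of 12 neutrophil markers were higher in cub and 0 lower, whose part was not tested. Of the 4 muscle genes, Myoz1 alone held in all 12 alternatives, and the count ran from 1, without wild-type replicate 2 or 3 or cub replicate 2 or 3, to 11, without wild-type replicate 1. Averaged over the 4 times, 10 were higher and 0 lower (9.71% and 8.56% of all genes), led in size by Myh2 at 0.34 ± 0.10 (adjusted p = 0.0212) and Mybpc2 at 0.31 ± 0.10 (adjusted p = 0.041). That count was 4 without cub 15 min replicate 3. The Mybpc2 call of this average was lost in 13 of 28 alternatives. The 3 calls that held in all 28 were Des at 0.25 ± 0.06 (adjusted p = 0.00865), Acta1 at 0.18 ± 0.05 (adjusted p = 0.00903) and Cav3 at 0.18 ± 0.04 (adjusted p = 0.00663). In the same average 8 of 10 endothelial, 7 of 9 fibroblast, 8 of 14 hair keratin and 6 of 12 neutrophil markers were higher in cub and 0 lower, and their part in the muscle values was not tested. The genotype difference of the wounding change passed for 0 of 38 genes at 15 min, where 0% of all genes passed.

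Other genes of muscle moved with the 38 in part. At 24 h, 22.4% of all genes were lower and 20.5% higher in wild type, and 24.9% and 21.1% in cub. Of 28 other sarcomere and Z-disc genes, 20 were lower and 4 higher at 24 h in wild type, and 21 and 2 in cub, with medians of −0.46 and −0.71. Myom1, the M-band protein myomesin, differed by −1.15 ± 0.15 in wild type (adjusted p = 2.37e-06), and Lmod2, which builds thin filaments, by −1.36 ± 0.12 in cub (adjusted p = 2.24e-09). The higher ones in wild type were Xirp1, Tpm3, Mybph and Flnc, and in cub Tpm3 and Mybph. Tpm3, a tropomyosin that many other cells also make, was 0.66 ± 0.04 and 0.72 ± 0.04 higher. Of 22 other excitation and calcium genes, 15 and 13 were lower and 0 higher, such as Srl, sarcalumenin (−0.87 and −0.80). Of 19 other energy genes, 15 and 16 were lower and 0 higher, such as the insulin-responsive glucose carrier Slc2a4 (−1.16 and −0.91), which fat cells also use. Of 10 genes of the dystrophin complex and membrane repair, 6 and 5 were lower and 1 and 2 higher; Dmd, dystrophin, differed by −0.71 and −0.84, and Dysf, dysferlin, a membrane repair protein, by 0.48 and 0.35.

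Of 15 myogenic regulators and satellite cell genes, 4 were lower and 2 higher at 24 h in each genotype, close to the shares of all genes (22.4% and 20.5% in wild type, 24.9% and 21.1% in cub). The higher ones were Myod1 (0.53 ± 0.13, adjusted p = 0.00211, in wild type; 0.56 ± 0.13, adjusted p = 0.0011, in cub) and Myog (0.40 and 0.46), the factors that turn on the muscle programme. Myod1 lay at 6.62 to 7.14 and 6.98 to 7.03 at 0 h and at 7.43 to 7.56 and 7.52 to 7.63 at 24 h in wild type and cub. Myog lay at 5.54 to 5.69 over the 6 unwounded arrays and 5.84 to 6.29 over the 6 at 24 h. All of these values lie below every array median, so the Myog probe set was not shown to be above background. Mef2c, a partner of these factors, was 0.55 and 0.62 lower on the log2 scale. Of 19 stress and atrophy genes, 10 and 11 were lower and 5 higher in each. Ankrd1, a stretch-responsive titin-binding protein that other injured tissues also make, went from 6.62 to 7.02 at 0 h to 10.01 to 10.24 at 24 h in wild type and from 6.71 to 7.25 to 9.85 to 10.26 in cub. Those are differences of 3.34 ± 0.15 and 3.13 ± 0.15 (adjusted p = 1.38e-13 and 2.37e-13), 10.1 and 8.75 times higher. Fbxo32, the atrophy ubiquitin ligase atrogin, differed by −1.49 ± 0.11 and −1.42 ± 0.11 (adjusted p = 3.94e-10 and 5.06e-10), and Mstn, myostatin, a brake on muscle growth, by −1.37 ± 0.20 in wild type (adjusted p = 8.83e-06).

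Markers of several other tissues were also lower at 24 h, those of cartilage and fat among them. Of all genes, 22.4% were lower and 20.5% higher in wild type, and 24.9% and 21.1% in cub. Of 16 cartilage markers, 13 were lower in wild type and 9 in cub, with medians of −0.54 and −0.43 and 0 higher. The mean of these markers per array ran from 0.063 to 0.281 over the 6 unwounded arrays and from −0.504 to −0.329 over the 6 at 24 h. Of 13 adipocyte markers, 12 and 13 were lower, with medians of −0.68 and −0.997, and their means ran from 0.006 to 0.985 and from −0.877 to −0.469. Of 11 smooth muscle markers, 4 and 5 were lower and 2 higher in each, Myh11 by −0.66 and −0.62. Of 11 nerve markers, 5 were lower and 1 higher in each genotype. Of 9 fibroblast markers, 6 were lower and 1 higher in each. Of 10 endothelial markers, 3 were lower and 4 higher in wild type, and 5 and 1 in cub. Of 9 keratinocyte markers, 5 and 7 were lower and 2 and 1 higher, and of 14 hair keratins, 0 and 2 were lower and 1 and 0 higher. All 12 neutrophil markers were higher in both genotypes, with medians of 4.19 and 4.94. The array means of the keratinocyte, nerve, smooth muscle and fibroblast lists were also the lowest of their genotype at 24 h. RMA values are relative within an array, and the part of these tissues in the muscle differences was not tested.

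**Figure D5:**
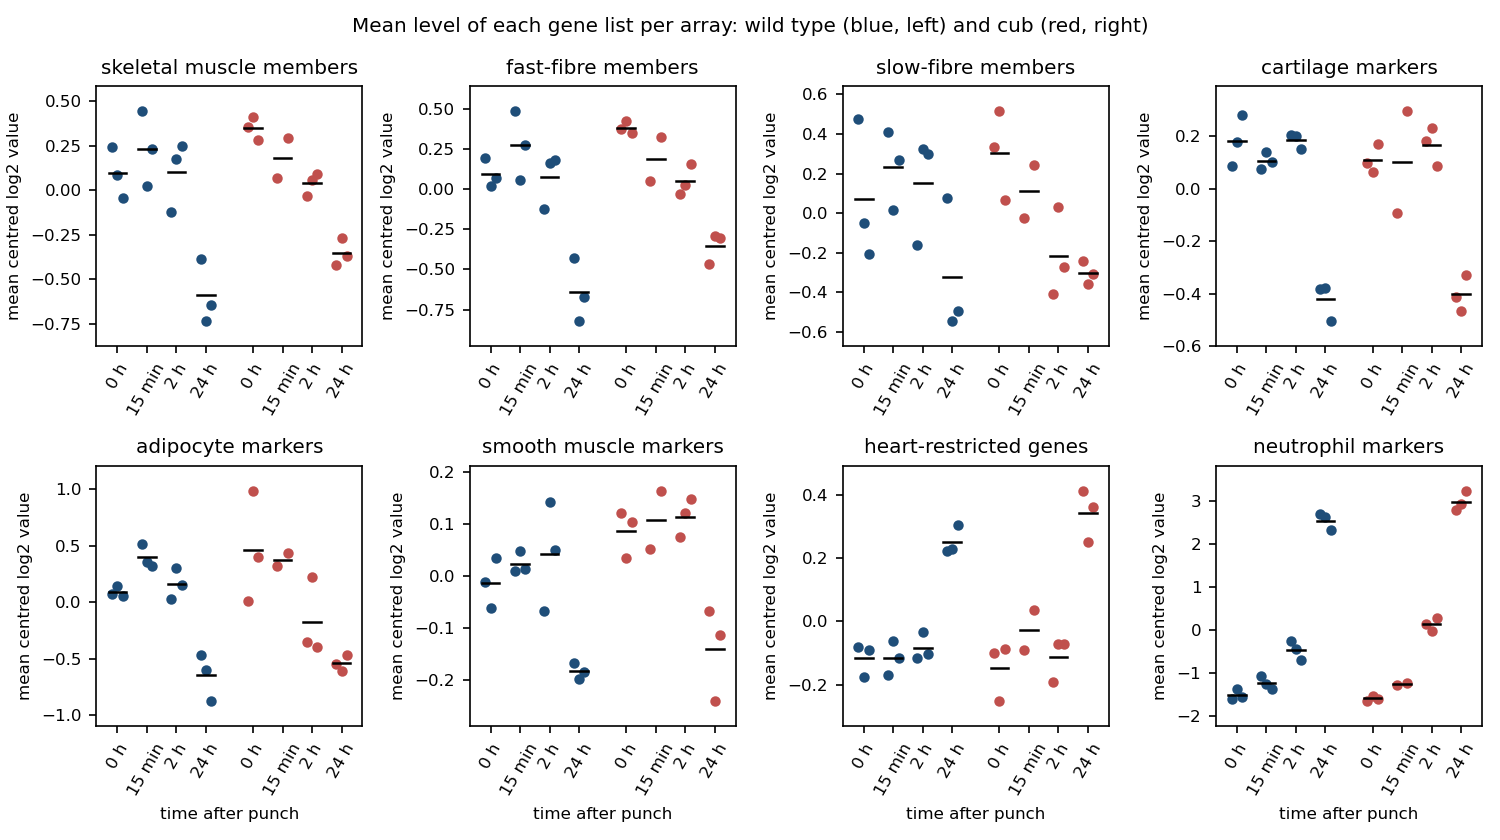
Mean centred log2 value of each gene list in each of 23 arrays, wild type in blue and cub in red, bars for group means and times as categories. At 24 h the muscle, cartilage and adipocyte means are the lowest of their genotype, at −0.266 to −0.877, while the neutrophil means rise to 2.32 to 3.24. The smooth muscle means are also lowest at 24 h, at −0.068 to −0.24. The heart list rises at 24 h through Nppb, its 1 called gene.

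The genes whose array-to-array variation within groups was most like the mean of the 38 were Hjv, Ak1, Tpm1, Pygm, Pfkm, Eef1a2, Klhl31, Cmya5, Rtn2 and Ppp1r3a, with Pearson r from 0.97 down to 0.915 over 23 arrays. Of these, 6 stood in the lists of other muscle genes, and Hjv, Eef1a2, Rtn2 and Ppp1r3a stood in none. Group means were removed first, so this is a description of which values rise and fall together between arrays of a group. Genes of 1 family, such as Myh1, Myh2 and Myh4, are alike in sequence, and how far their probes tell them apart was not tested.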

How the data were processed

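RNA of 23 ear samples was measured on the Affymetrix Mouse Gene ST array 1.0, 1 array per sample. Per the submitters' processing notes, values were made in Affymetrix Expression Console 1.1 with RMA; the deposited log2 intensities were used unchanged. The probe annotation gave 1 gene symbol for 21789 of 35556 probe sets, several for 1621 and none here for 12146. For 21698 of the named probe sets the gene ID matched RefSeq. The probe set of highest mean was kept for each of 19938 genes.

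Group means for the 8 genotype and time groups were fitted in R 4.3.3 with limma 3.58.1 (15 residual and 5.61 prior degrees of freedom), with two-sided tests. Samples are biological replicates by their labels, and each sample's group came from its title. Replicate numbers were not taken to pair the samples. Same-numbered samples deviated from their group means with correlations from −0.447 to 0.41 over genes. Differently numbered samples were not set beside them, so this cannot settle whether the numbers pair samples. The number of arrays limits the precision.

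The members and lists were chosen with earlier results of these data known. Any member could be named. Those with the largest differences past the threshold got full statistics (at most 8 per comparison), or the 3 with the smallest adjusted p where none passed, and each other list could give 3 genes. Members described in words beyond this were chosen after their values were seen. Alternatives were median centring, a filter on dim genes, the mean of a gene's probe sets, only the groups compared, trend and robust variance, a replicate block and leaving out each array. The fit was tested on simulated data.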

Additional observations from a re-analysis of the deposited data

Results flagged for a closer look

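The 24 h wounding change of Myh2 differed between cub and wild type by −1.33 ± 0.27 on the log2 scale (limma, adjusted p = 0.0195), and it is the one muscle gene that passed this test at any time. In cub, 3 of 3 arrays at 24 h lay below all arrays at 0 h, while the wild-type arrays of 0 h (8.25 to 9.11) and 24 h (8.47 to 8.75) overlapped. Cub also started higher at 0 h, by 1.08 ± 0.19 (adjusted p = 0.00258). The call on the difference between the 24 h changes was lost in 4 of 18 alternatives, with adjusted p up to 0.0651. Wild-type Myh2 was itself lower at 24 h, with a mean of 8.63, than in the rims of 2 h (9.34, adjusted p = 0.00499) and 15 min (9.22, adjusted p = 0.0165).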

How the results depend on the processing

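Under centring, the filter on dim genes, the mean of probe sets, only the groups compared, trend and robust variance and a replicate block, 119 counts of called muscle genes stayed within 1.5 times and 5 did not. These were wild type 2 h against 0 h and cub 2 h against 15 min, which went from 1 to 0 with trend and robust variance (the first also with only the groups compared), and cub against wild type at 24 h, which went from 4 to 8 when testing only genes that reached 6 in some group's mean (13741 genes) and to 1 with only the groups compared. Apart from the filter's fewer genes and the smaller set of arrays, the cause was not tested. For the rims together and the genotype average, only the groups compared means all arrays. Of the values for single genes, 1415 kept direction and side of the threshold, 110 lost the threshold, 3 gained it and 0 reversed. These cover only the members picked by size or adjusted p in the same fit, a choice that favours keeping direction. Over all called members, the calls that held in every alternative were 29 of 33 for wild type and 34 of 35 for cub at 24 h against 0 h. They were 21 of 31 for all rims, 1 of 10 for cub 2 h against 0 h and 3 of 10 for the genotype average.

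Leaving out 1 array gave these counts: all rims 23 (without wild type 0 h replicate 1) to 33; wild type against 0 h 0 to 0 at 15 min, 0 to 1 at 2 h and 29 to 33 at 24 h; cub against 0 h 0 to 1 at 15 min, 1 (without 0 h replicate 2 or 2 h replicate 1) to 5 at 2 h and 34 to 35 at 24 h. Among rims they were, in wild type, 0 to 2 (without 15 min replicate 2) for 2 h against 15 min, 34 to 36 for 24 h against 15 min and 32 to 36 for 24 h against 2 h. In cub they were 0 to 1, 17 to 31 and 19 to 26. Between genotypes they were 1 to 5 at 0 h, 0 to 1 at 15 min, 0 to 0 at 2 h, 1 to 11 at 24 h and 4 to 12 for the average. For the genotype difference of the wounding change they were 0 to 0 at 15 min and 2 h and 0 to 1 at 24 h. Without either cub 15 min array, that group is 1 array, assumed to vary like the others.

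The replicate block left 18 of 21 counts as they were and gave 25 in place of 26 for cub 24 h against 2 h and 3 in place of 4 for cub against wild type at 0 h and at 24 h, where Ldb3 and Atp2a1 fell short. Whether the numbers pair the samples was not settled.

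Groups of 2 or 3 arrays, tissue pieces of mixed makeup, an unstated 0 h piece and RMA values, which compress low signals, limit these comparisons.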

Other observations

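Of 11 heart-restricted genes, 1 was called at 24 h, upward (20.5% and 21.1% of all genes were higher in wild type and cub). Nppb, the brain natriuretic peptide, lay at 5.76 to 5.87 in unwounded wild-type ear and at 9.89 to 10.39 at 24 h, and in cub at 5.64 to 5.92 and 10.79 to 10.98. The differences were 4.31 ± 0.10 and 5.06 ± 0.10 on the log2 scale, measured from 0 h values below every array median, so the probe set was not shown to be above background there and no fold is given, and the genotype difference of the change was 0.75 ± 0.13 (limma, adjusted p = 0.00828). The other 10 heart-restricted genes had no call at 24 h in either genotype. Actc1, the actin of heart and developing muscle, lay at 9.10 to 9.56 in cub and 7.66 to 8.49 in wild type at 24 h, a difference of 1.35 ± 0.38 (adjusted p = 0.0396). At 0 h its arrays overlapped, at 9.13 to 10.30 in cub and 8.45 to 9.32 in wild type.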
